A study of Mus musculus with 2 samples.

Results

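The genes of the Toll-like receptors Tlr1 to Tlr9 and of their adaptor Myd88 were examined in maps of open chromatin from mouse spleen. The 10 genes were taken by name from GENCODE M21, out of 21911 protein-coding genes. For each gene, all peaks and footprints in the gene body widened by 20 kb on each side were collected. A promoter was the 1000 bases either side of any annotated start site of the gene, and a distal site lay farther than 1000 bases from every start site of a protein-coding gene. DNase-seq, which sequences the ends left by DNase I in nuclei, had been run on whole spleen of male B6CASTF1/J mice at an age of 14 days. B6CASTF1/J is the F1 cross of C57BL/6J and CAST/EiJ. There was 1 group with 2 biological replicates of 1 library each, so the design held no contrast and no test was made. Replicate 1 pooled 3 males and replicate 2 came from 1 male, and both carried the same donor entry, so the spread between them may not be that between unrelated animals.

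Toll-like receptors are membrane proteins of innate immunity that recognise molecules of microbes. TLR1, TLR2, TLR4, TLR5 and TLR6 act mainly at the cell surface and bind lipoproteins, lipopolysaccharide or flagellin, while TLR3, TLR7, TLR8 and TLR9 act in endosomes and bind nucleic acids. All of them except TLR3 can pass the signal on through MyD88, which recruits IRAK kinases and leads to NF-kB activation. In the spleen the receptors are known from macrophages, dendritic cells and B cells.

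Each library came with a strict and a larger peak list, and every peak carried the authors' own signal value, whose scale the labels and file descriptions do not state. Values of the strict lists are given unless the larger list is named. Ratios between the libraries take both to be on 1 scale. Replicate 1 had 48286 strict peaks and replicate 2 had 28837, and their read depth is unknown here. Among markers of cell types, a promoter peak in both replicates was called for 5 of 5 erythroid genes, 5 of 6 B cell genes, 3 of 6 dendritic cell genes, 2 of 5 T cell genes and 2 of 9 macrophage and monocyte genes. It was called for 2 of 6 endothelial and stromal, 1 of 3 megakaryocyte and 0 of 5 neutrophil genes, and, as lists foreign to spleen, 1 of 3 pancreas and 0 of 3 liver genes. The erythroid and B cell counts thus stood above the share of all genes, 51.1%, and the others at or below it. Among genes with a low CpG ratio, described further on, the share was 11.9%. The CpG ratios of these short marker lists were not examined. The summed promoter signal of the macrophage and monocyte list was 6.26 in replicate 1 and 2.74 in replicate 2, against 31.2 and 13.2 for B cells. Over all protein-coding genes the sum was 108000 and 63200. Of that list Spi1 had 3.96 and 2.06, Mertk had 0.806 and 0.683, Cd68 had 1.49 in replicate 1 alone, and the other 6, among them Adgre1, Csf1r, Itgam and Spic, had no strict promoter peak in either library. In whole tissue, fewer cells of a type and less accessible DNA per cell cannot be told apart.

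The stretches of the promoter peaks that carried the footprints described further on, and a stretch at Tlr3, are shown here. They are on mm10, 5′ to 3′ on the strand of the gene. Capitals mark bases inside a deposited footprint, a short run protected from DNase I, of replicate 1, and of replicate 2 for the Tlr2 site in the exon. Exon sequence was held to 30 bases in each. The 2 footprints marked at Tlr3 touched none of replicate 2. The Tlr3 promoter footprint that did, chr8:45410214-45410224, lay outside the stretch shown.
Tlr2, intron stretch of the promoter peak (chr3:83841341-83841519, minus strand): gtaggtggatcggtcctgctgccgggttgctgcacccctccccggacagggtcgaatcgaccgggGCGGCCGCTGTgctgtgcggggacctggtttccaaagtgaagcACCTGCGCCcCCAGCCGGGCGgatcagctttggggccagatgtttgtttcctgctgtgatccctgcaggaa
Tlr2, site in the exon of the promoter peak (chr3:83841650-83841679, minus strand): gtgggcggcgcttgccgcaCCGGGGGCggt
Tlr6, promoter peak up to the start site (chr5:64960068-64960220, minus strand): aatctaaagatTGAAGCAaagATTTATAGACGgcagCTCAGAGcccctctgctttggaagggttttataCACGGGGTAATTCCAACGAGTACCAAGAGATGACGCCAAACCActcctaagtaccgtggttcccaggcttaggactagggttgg
Tlr4, site in the exon of the promoter peak (chr4:66827682-66827711, plus strand): ttggcaCTCTCACttcctctttgaatatag
Tlr3, promoter peak up to the start site (chr8:45410351-45410422, minus strand): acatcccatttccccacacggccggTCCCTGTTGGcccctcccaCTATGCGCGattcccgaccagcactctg
Tlr9, start site (chr9:106222398-106222627, plus strand): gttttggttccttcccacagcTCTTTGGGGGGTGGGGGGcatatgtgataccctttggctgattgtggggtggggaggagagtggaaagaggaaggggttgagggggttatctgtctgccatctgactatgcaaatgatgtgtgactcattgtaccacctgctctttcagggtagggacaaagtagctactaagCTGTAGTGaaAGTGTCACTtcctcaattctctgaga
Myd88, promoter peak at the main start site (chr9:119340012-119340160, minus strand): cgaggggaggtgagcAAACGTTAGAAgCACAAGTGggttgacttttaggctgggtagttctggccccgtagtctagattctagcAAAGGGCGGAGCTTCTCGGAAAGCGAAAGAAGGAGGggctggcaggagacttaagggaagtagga
Myd88 and Acaa1a, upstream peak outside exons (chr9:119341160-119341293, minus strand): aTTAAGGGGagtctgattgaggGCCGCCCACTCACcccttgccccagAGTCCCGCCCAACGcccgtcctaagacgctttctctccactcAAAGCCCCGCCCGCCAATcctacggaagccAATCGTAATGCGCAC

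Of the 10 genes, 5 had a promoter peak in both replicates, namely Tlr2, Tlr3, Tlr4, Tlr6 and Myd88. The same call was made at 51.1% of all protein-coding genes. Replicate 1 had a promoter peak at 6 of the 10 genes, where 56.7% of all genes had one, and replicate 2 at 5, where 51.4% had one. The gene called in replicate 1 alone was Tlr9. In the larger lists 5 of the 10 genes were called in both replicates, beside 56.1% of all genes, and replicate 1 reached 9 of the 10, beside 61.5% of all genes. The counts of the members were thus near the background in both strict lists, and the larger list of replicate 1 added Tlr1, Tlr5 and Tlr7. This held for the whole strict lists. With the strongest 50% of strict peaks of each library, 1 of the 10 members, Myd88, was called in both replicates, beside 9424 of the 21911 genes. That call rested on an upstream peak that also covers start sites of the gene Acaa1a. The Myd88 peak at the main start site had 1.58 in replicate 2, below the median of 1.79 of that strict list. Tlr8 had no promoter peak in any list.

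Among the receptors of the cell surface, Tlr2, the partner of TLR1 and TLR6 in binding lipoproteins, had a promoter signal of 1.76 in replicate 1 and 1.40 in replicate 2 (1.58 ± 0.257, SD, n = 2). Both libraries were close at this gene, with a log2 ratio of 0.33. Its start site at chr3:83841767 lay just outside the peak, which covered most of the exon and, in both libraries, the start of the intron behind it. In replicate 1 the peak was listed in 2 overlapping forms with signals of 1.72 and 1.76.

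Tlr6, which pairs with TLR2 for diacylated lipoproteins, had the highest promoter signal of the receptors in both libraries. It was 2.70 in replicate 1 and 1.43 in replicate 2 (2.07 ± 0.899, SD, n = 2). This peak covered both annotated start sites in replicate 1 and the upstream one, chr5:64960097, in replicate 2, and 3 weaker peaks of replicate 1 alone stood in the same promoter, with signals of 1.41, 0.495 and 0.478. Tlr1, the partner for triacylated lipoproteins and the neighbour of Tlr6 on chromosome 5, had no strict promoter peak. The larger list of replicate 1 held 2 peaks at its start sites, with signals of 0.520 and 0.512, and replicate 2 had no base there under a false discovery rate of 0.05.

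Tlr4, the receptor for lipopolysaccharide, had a promoter signal of 2.07 in replicate 1 and 0.911 in replicate 2 (1.49 ± 0.822, SD, n = 2). Its log2 ratio of 1.19 was the widest of the genes called in both, beside 1.18 at Myd88. The lowest false discovery rate in the promoter was 1.65e-28 in replicate 1 and 1.04e-06 in replicate 2. Tlr5, the receptor for flagellin, had 1 promoter peak, in the larger list of replicate 1, with a signal of 0.478 at 947 bases upstream of the start site. Replicate 2 had no base under 0.05 in that promoter.

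Among the receptors of endosomes, Tlr3, which binds double-stranded RNA and signals through TRIF, had the weakest promoter called in both libraries. Its signal was 0.814 in replicate 1 and 0.577 in replicate 2 (0.696 ± 0.167, SD, n = 2). The peak also covered an exon of Gm45542 on the opposite strand, and DNase I cuts do not tell the strands apart. Tlr7, which binds single-stranded RNA, was called in the larger list of replicate 1 with a signal of 0.327. At Tlr8, its neighbour on the X chromosome, neither library had a base under a false discovery rate of 0.05 within the promoter. All animals were male, so Tlr7 and Tlr8 were present in 1 copy.

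Tlr9, which binds DNA with unmethylated CpG, was the 1 member with a strict promoter peak in replicate 1 alone. Replicate 1 had a promoter signal of 1.83, above that of Tlr2, and a second peak of 1.28 centred 587 bases into the gene. Replicate 2 had neither a peak in any list nor a base under 0.05 within the promoter. Of the 399 protein-coding genes with a replicate 1 promoter signal within 10% of that of Tlr9, 63 (15.8%) had no strict promoter peak in replicate 2 and 6 (1.5%) had no base under 0.05. Of the 10334 genes with a promoter signal at least that of Tlr9 in replicate 1, 7 had no such base. These sets and counts include Tlr9 itself, and they were chosen after its values were seen.

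Myd88 had the highest promoter signal of the 10 genes, 8.0 in replicate 1 and 3.53 in replicate 2 (5.76 ± 3.16, SD, n = 2). That peak, chr9:119341141-119341440 in replicate 1, lay at the most upstream of 3 annotated Myd88 start sites, that of a transcript outside the basic set of the annotation. It also covered start sites of Acaa1a, a peroxisomal thiolase gene that points the other way, so the signal could not be split between the genes. At the main start site, that of the longest coding Myd88 transcript, the signal was 3.25 in replicate 1 and 1.58 in replicate 2. They overlapped those of Tlr6.

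**Figure D1:**
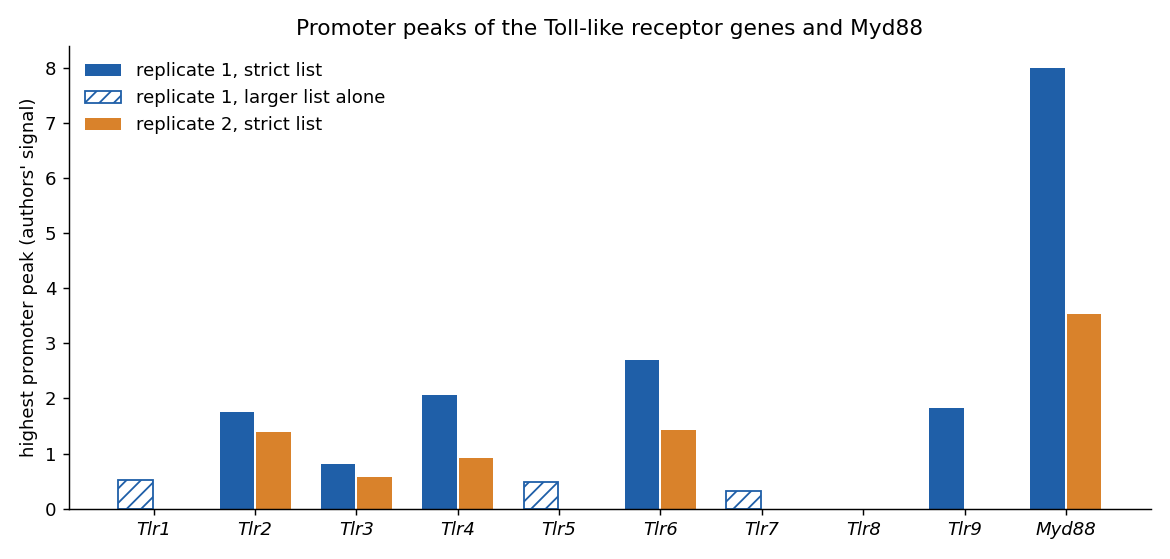
Highest promoter peak of each gene in each replicate, in units of the authors' signal; filled bars are strict peaks and hatched bars are peaks of the larger list alone. Myd88 stood highest at 8.0 and 3.53, Tlr9 had a bar in replicate 1 alone, and Tlr8 had none.

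By mean promoter signal the order was Myd88, Tlr6, Tlr2, Tlr4, Tlr9 and Tlr3, followed by the 4 genes at 0. The lower value of Myd88, 3.53, stood above the higher value of Tlr6, 2.70. From Tlr6 down to Tlr3, the values of each gene overlapped those of the next, so that these neighbours did not differ beyond the spread of the replicates. Tlr3 had a peak in both libraries and did not overlap the 4 genes at 0. Within each library Myd88 stood above Tlr6, also with its peak at the main start site, and Tlr6 stood above the other receptors. Tlr3 was the lowest gene called in each, while Tlr2 and Tlr4 changed places between the libraries. Among genes with a promoter peak in the same library, the receptors stood low. In replicate 1 Tlr6 was at percentile 23.7, Tlr4 at 18.9, Tlr9 at 16.9, Tlr2 at 16.2 and Tlr3 at 5.58. In replicate 2 Tlr6 was at percentile 11.0, Tlr2 at 10.5, Tlr4 at 3.66 and Tlr3 at 0.657. Myd88 was at 55.2 and 37.0. The median promoter signal of all genes called in both replicates was 7.94 in replicate 1 and 4.82 in replicate 2.

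CpG, a C followed by a G, is frequent at broadly active promoters. RefSeq held 300-base promoters on GRCm38.p6 for Tlr1, Tlr2, Tlr3, Tlr5, Tlr6, Tlr8, Tlr9 and Myd88. The observed to expected ratio of CpG was 0 at Tlr9, 0.135 at Tlr8, 0.327 at Tlr5, 0.384 at Tlr2, 0.524 at Tlr3 and 0.613 at Myd88. Tlr1 had promoters with 0.251 and 0.514, and Tlr6 with 0.406 and 0.576. All of these lay below the median of 0.631 over 16522 genes, but Myd88, Tlr6, Tlr3 and Tlr1 were near it, at percentiles 48.6, 45.8, 42.4 and 41.7 by their highest promoter. The ratio was under 0.4 for 35.3% of all genes. Of the 5825 genes with a ratio under 0.4, 11.9% had a promoter peak in both replicates. Of the 4 receptors whose ratio was under 0.4 at every listed promoter, Tlr2 alone was called in both. This background was chosen after the promoter calls were seen. The Tlr2 ratio was that of chr3:83841559-83841858, whereas the called site, chr3:83841341-83841760, reached farther into the gene. That site held 24 CpG in 420 bases, and its own ratio was not computed.

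**Figure D2:**
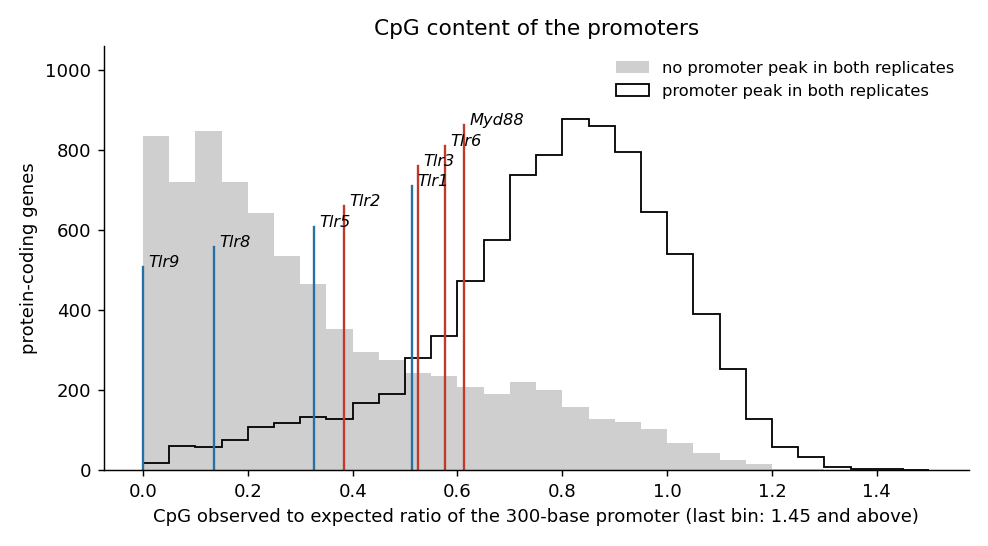
Number of protein-coding genes by CpG observed to expected ratio of the promoter, filled for genes without and outlined for genes with a promoter peak in both replicates. Red lines mark members called in both replicates and blue lines members that were not, each at its promoter with the highest ratio; they run from 0 at Tlr9 to 0.613 at Myd88.

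The windows held 19 distal strict sites, of which 8 (42.1%) were called in both replicates and 11 in replicate 1 alone. Over the genome 35.5% of 29324 distal sites were called in both. The 8 shared sites fell to 3 genes, with 3 at Tlr5, 4 at Tlr8 and 1 at Myd88. Tlr5 and Tlr8, without a strict promoter peak, thus held 7 of the 8. Tlr2 and Tlr6 had no distal strict site, and the distal sites of Tlr1, Tlr3, Tlr4, Tlr7 and Tlr9 were called in replicate 1 alone. Of the 19 sites 13 lay between genes, 6 of them in both replicates, and 6 in introns, 2 of them in both.

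The longest footprint of replicate 1 at each shared distal site is shown here on mm10, with 15 bases on either side and footprint bases in capitals, so that the letters searched in them can be read. These footprints covered 12 to 36 bases.
Tlr5, intron site (chr1:182960280-182960338, plus strand): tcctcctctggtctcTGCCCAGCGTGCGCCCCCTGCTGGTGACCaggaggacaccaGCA
Tlr5, near downstream site (chr1:182983049-182983099, plus strand): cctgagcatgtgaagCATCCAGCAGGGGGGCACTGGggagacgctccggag
Tlr5, far downstream site (chr1:182991097-182991145, plus strand): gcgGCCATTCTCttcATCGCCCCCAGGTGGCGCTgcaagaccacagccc
Myd88, distal site (chr9:119352226-119352291, plus strand): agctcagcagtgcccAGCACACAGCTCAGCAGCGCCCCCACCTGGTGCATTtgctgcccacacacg
Tlr8, downstream site A (chrX:167227341-167227382, plus strand): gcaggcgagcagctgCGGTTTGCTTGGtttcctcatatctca
Tlr8, downstream site B (chrX:167229322-167229384, plus strand): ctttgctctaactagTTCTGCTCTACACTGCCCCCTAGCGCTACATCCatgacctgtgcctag
Tlr8, downstream site C (chrX:167233596-167233652, plus strand): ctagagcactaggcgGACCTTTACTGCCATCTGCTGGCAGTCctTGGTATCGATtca
Tlr8, upstream site (chrX:167277118-167277179, plus strand): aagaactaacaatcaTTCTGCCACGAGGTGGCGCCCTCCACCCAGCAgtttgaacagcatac

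At Tlr5 the intron site, chr1:182960201-182960380, had a signal of 1.56 in replicate 1 and 1.32 in replicate 2. The site 10993 bases from the nearest Tlr5 start site had 1.14 and 0.838, and the site at 18933 bases had 1.20 and 1.00. The 3 sites differed little between the libraries, with ratios of 1.18, 1.36 and 1.20. The near and far downstream sites lay behind the end of the gene.

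At Tlr8 a run of 5 sites lay 30188 to 37052 bases from the nearest Tlr8 start site, behind the end of the gene. The strongest, site B at chrX:167229261-167229460, had a signal of 2.79 in replicate 1 and 1.99 in replicate 2. Site A had 2.06 and 1.04, and site C had 1.70 and 1.46. The other 2 sites, with 1.70 and 1.33 in replicate 1, were found in the larger list of replicate 2 with 0.724 and 0.537. All 5 were thus present in both libraries when the larger list was counted. These sites were 17421 to 24285 bases from the nearest start site of Tmsb4x, which encodes thymosin beta 4, and so nearer to it than to Tlr8. The upstream site, 12830 bases before Tlr8, had 1.02 and 0.569.

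At Myd88 the shared distal site, chr9:119352161-119352360, had a signal of 1.60 in replicate 1 and 1.91 in replicate 2. It was the 1 site of the 20 shared strict sites of all classes that stood higher in replicate 2. It lay in an intron of Slc22a14, an organic ion transporter gene, 3755 bases from a start site of Acaa1a.

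The distal sites of replicate 1 alone were weaker, with a median signal of 0.789 against 1.58 at the shared ones. At Tlr1 3 sites had signals of 0.806, 0.772 and 0.646, and at Tlr7 2 intron sites had 0.520 and 0.411. Tlr4 had 1 intron site of 0.789, Tlr9 1 site of 0.932, and Myd88 1 site of 0.831 that the larger list of replicate 2 held at 0.838. The Tlr3 site 4055 bases upstream had 0.713 and was in the larger list of replicate 2 with 0.382. In all, 4 of the 11 were found in the larger list of replicate 2. A further 17 sites appeared in a larger list only, all of them in replicate 1, with signals from 0.218 to 0.764. Of all these sites, a larger-list site 26972 bases from Tlr1 had 13 near-identical copies elsewhere in the genome, at an identity of at least 90% over at least 80% of its length, so its reads may belong elsewhere. No other site had such a copy, but some had partial or less alike matches elsewhere. The Tlr1 site of 0.806 had 21 of them. At the promoter of Fam114a1, next to Tlr6, chr5:64969081-64969280 had 9761 and chr5:64969350-64969560 had 62352.

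**Figure D3:**
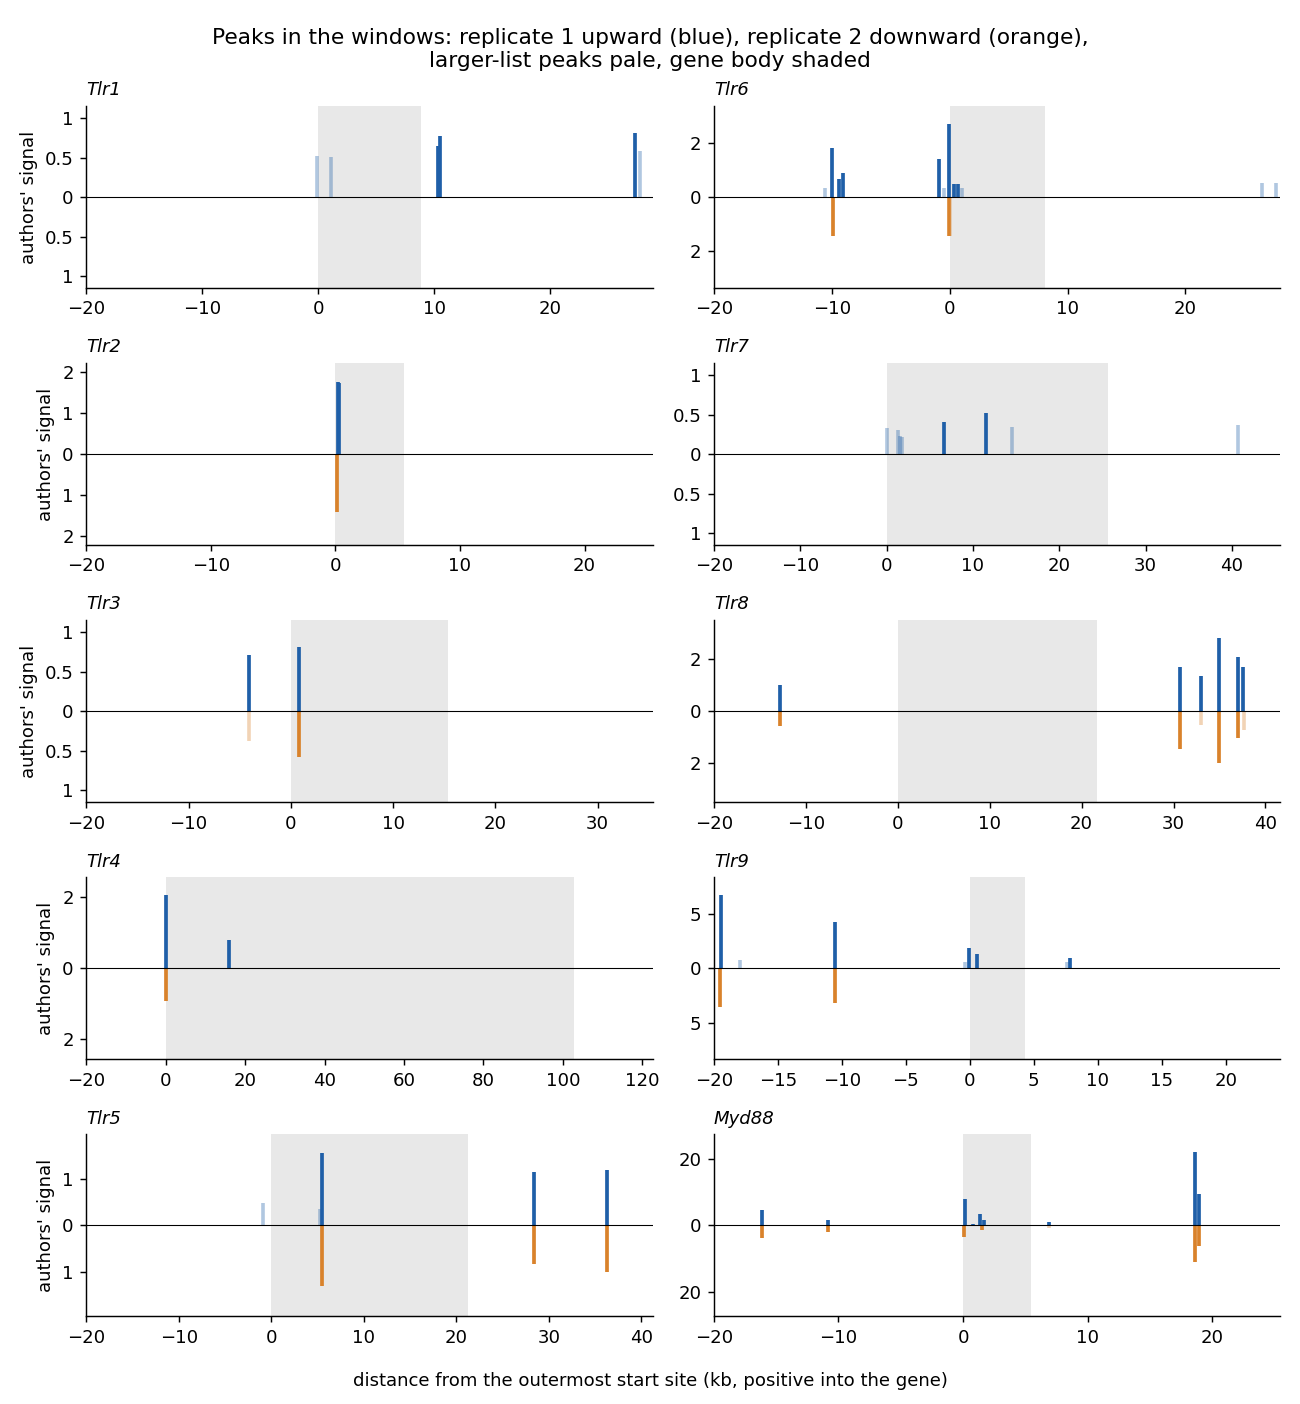
Peaks in the window of each gene by distance from its outermost start site (kb, positive into the gene), with the authors' signal of replicate 1 upward and of replicate 2 downward; pale lines are peaks of the larger list and the grey band is the gene body. Tlr5 and Tlr8 show matched lines away from the start site, Tlr1 and Tlr7 lines in replicate 1 alone, and the tallest lines at Tlr9 and Myd88 belong to promoters of neighbouring genes.

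The widened windows also held promoters of 5 other genes with strict peaks. Oxsr1, a stress kinase gene, had 22.1 and 11.0 and was the strongest site of any window, while Xylb, a xylulokinase gene, had 4.58 and 3.93. Twf2, which encodes an actin-binding twinfilin upstream of Tlr9, had 6.73 and 3.55 at one start site and 4.19 and 3.17 at another. Fam114a1, next to Tlr6, had 1.80 and 1.44, and Acaa1a shared the peak at Myd88. The peak count of a window thus included its neighbours. The Myd88 window had 9 strict peaks in replicate 1 and 6 in replicate 2, but 2 and 2 of these were promoter peaks of Oxsr1.

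At the 20 sites called in both libraries the median ratio of replicate 1 to replicate 2 was 1.40, with 19 higher in replicate 1. Over 25244 shared sites of the genome the median ratio was 1.49, and 88.6% were higher in replicate 1. For the 8 distal sites the median ratio was 1.28, beside 1.31 over the genome. For the 4 promoter sites that belonged to receptors alone it was 1.65, beside 1.57 at promoters over the genome. Among the distal sites the log2 ratio was highest at Tlr8 site A, with 0.99, and lowest at Myd88, with -0.25. Both lay between percentile 5 (-0.37) and percentile 95 (1.42) of shared distal sites of the genome.

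**Figure D4:**
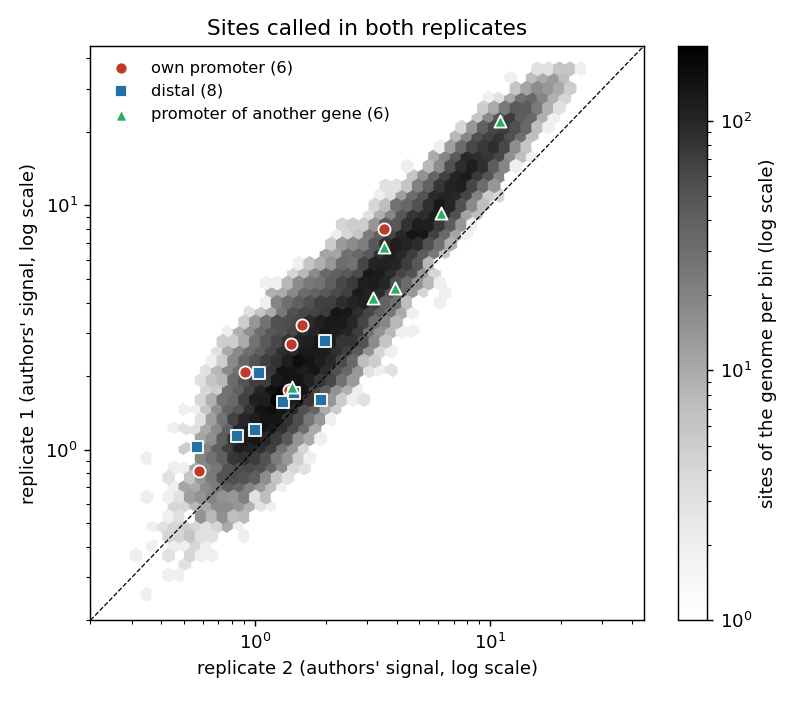
Signal in replicate 1 against replicate 2 at sites called in both, on log axes, with all sites of the genome as grey bins and the sites of the windows as coloured points. The dashed line marks equal values; 19 of the 20 coloured points lie above it.

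Footprints in the windows numbered 153 in replicate 1 and 96 in replicate 2. In replicate 1 118 of them touched a strict peak and 24 lay outside both lists, and in replicate 2 the numbers were 73 and 13. Of the footprints of replicate 1, 43.8% touched one of replicate 2, beside 42.0% over the genome. In the other direction it was 71.9%, beside 66.6%. Per window, Myd88 had 46 and 42, Tlr6 30 and 8, Tlr9 19 and 9, Tlr8 13 and 16, Tlr5 10 and 9, Tlr2 7 and 7, Tlr4 9 and 2, Tlr3 7 and 3, Tlr1 9 and 0, and Tlr7 6 and 0. The footprints carried 1 constant score, so none could be ranked above another.

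The longest footprint of a receptor promoter lay at Tlr6, just upstream of the start sites. It covered 43 bases, chr5:64960109-64960151, in replicate 1, and replicate 2 listed 32 bases from the same first position and a second run ending at the same last position. In the sequence above it is the long block of capitals. At Myd88 a footprint of 36 bases, chr9:119340041-119340076, ran upstream from the main start site and held 2 motifs at once. The letters of the IRF motif, read by interferon regulatory factors, stood at chr9:119340049-119340058 next to a GC box (GGGCGG). Replicate 2 had a short footprint on each. The IRF letters were in 2.17% of all strict peaks of replicate 1 and 1.44% of replicate 2, in the 200 bases at the centre, and in 3.44% of RefSeq promoters. Among promoter peaks of the 10 genes the IRF letters were found at Myd88 alone.

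Motifs were searched on both strands as plain letters, and a match is not a binding site. The joined letters GAGGAAGT, in which the PU.1 motif GAGGAA overlaps the ETS motif GGAAGT, were found in promoter peaks of Tlr4, Tlr6 and Tlr9. PU.1 is a transcription factor of myeloid and B cells. At Tlr4, chr4:66827693-66827700, the match was touched by a footprint of 7 bases in each library. That of replicate 2, chr4:66827693-66827699, covered all but its last base. That of replicate 1, chr4:66827688-66827694, reached only its first bases. At Tlr9, chr9:106222608-106222615, the match was touched by a footprint of replicate 1, just behind the start site. At Tlr6 the match lay in the weaker upstream peak, in no footprint. These letters occurred in 4.26% of strict peaks of replicate 1, 2.41% of replicate 2 and 3.2% of RefSeq promoters. They were added after the sequences had been read, so their presence at 3 receptor promoters is a description.

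The Tlr9 start region also held the octamer letters ATTTGCAT and the AP-1 letters TGANTCA, each outside footprints. The same peak held the GATA letters AGATAA, the E-box letters CAGGTG and a GC box, also outside footprints. The octamer was in 1.48%, AP-1 in 5.21%, GATA in 8.38% and this E-box in 18.2% of strict peaks of replicate 1. The Tlr2 peak of replicate 1 held 4 GC boxes, all touched by a footprint of that library, and the peak shared by Myd88 and Acaa1a held 3 GC boxes in footprints and 3 NFY motifs (CCAAT). GC boxes were in 30.1% of strict peaks of replicate 1 and 41.2% of replicate 2, and NFY motifs in 22.4% and 23.7%. Shares of strict peaks given for motifs count the 200 bases at the centre, whereas these matches were counted over whole peaks. In the centre of the 420-base form of the Tlr2 peak only the GC box at chr3:83841451-83841456 remained. In the centre of the shared Myd88 peak of replicate 1 the 3 GC boxes remained, but only the NFY motif at chr9:119341297-119341301. The Tlr6 promoter peak of replicate 1 held the TATA box letters (TATAAA) 2 times, at chr5:64960152-64960157 and chr5:64960193-64960198. Both matches were on the strand opposite to the gene, upstream of the start site at chr5:64960097. These letters were in 4.14% of strict peaks of replicate 1 and 13.6% of RefSeq promoters. The match farther upstream was in a footprint of both libraries, but that of replicate 2 lay outside its peaks.

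The distal sites were also searched for letters of CTCF, a protein of chromatin loops and boundaries. This search was not planned at the outset, so its counts are a description. The core motif of 12 positions, given here by its name, matched at 3 of the 8 shared distal sites, in the intron of Tlr5, at Tlr8 site C and upstream of Tlr8. The shorter AGGNGGC matched at 4, and either was found at 5 of the 8, beside 51.5% of 10408 shared distal sites over the genome. The near downstream site of Tlr5, the Myd88 site and Tlr8 site A held neither. None of the 11 distal sites of replicate 1 alone held either, beside 30.4% over the genome. With 8 and 11 sites, these shares were not read as differing from the genome. At Tlr8 site B the footprint of 33 bases, chrX:167229337-167229369, had the same first and last base in both libraries. At the Myd88 distal site the footprint had 36 bases in replicate 1 and 33 in replicate 2.

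Of 44 other genes of the pathway, 35 (79.5%) had a promoter peak in both replicates, beside 51.1% of all genes and 5 of the 10 members. Their median promoter signal was 4.27, against 0.805 for the members and 0.99 over all genes. The lists were not tested against each other.

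Among the other receptors, 0 of 3 were called in both, with Tlr12 at 0.839 in replicate 1 alone and Tlr11, a receptor for profilin of protozoa, at 0. Of 9 accessory and trafficking genes 4 were called in both. Hsp90b1, the chaperone that folds the receptors, had 19.0 and 9.38, Cnpy3, its partner, had 16.9 and 8.31, and Unc93b1, which carries the endosomal receptors, had 4.54 and 2.33. Cd14, the coreceptor for lipopolysaccharide, had no peak in any list.

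All 4 other adaptor genes were called in both. Sarm1 had 10.4 and 6.87, Tirap, which bridges TLR2 and TLR4 to MyD88, had 7.67 and 6.57, and Ticam1, which encodes TRIF, had 5.54 and 2.44. The mean signal of Myd88 from the peak shared with Acaa1a, 5.76, lay between those of Tirap and Ticam1, but at its main start site both values, 3.25 and 1.58, were below those of Ticam1. All 16 kinase and ligase genes were called in both. Tab3, an adaptor of the kinase TAK1, had 14.8 and 7.69, Peli1, a ubiquitin ligase of the IRAK proteins, had 12.1 and 7.50, and Irak2 had 11.8 and 7.78.

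Of 6 transcription factor genes 5 were called in both, with Irf3 at 15.6 and 8.86, Rela at 4.87 and 3.57, and Rel at 4.58 and 2.68. All 6 inhibitor genes were called in both, and this group had the highest median, 11.1. Tollip, which binds receptors and IRAK1, had 27.7 and 17.9. Cyld, a deubiquitinase, had 18.1 and 8.36, and Nfkbia, which encodes the NF-kB inhibitor alpha, had 14.8 and 9.56.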

How the data were processed

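DNase-seq libraries of 2 replicates were examined on mm10, the assembly of the labels. The authors deposited, for each library by itself, a strict and a larger peak list with 1 signal value per peak, runs of bases with a false discovery rate (a p-value type of unit) under 0.05, and footprints with a constant score of 0.01. Not given in the sources used here were the aligner, the callers, their versions, the scale of the signal and the handling of reads from the CAST/EiJ allele. The strict list is the one with fewer bases.

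Genes and start sites came from GENCODE M21, and sequences from the RefSeq mm10 assembly. Promoter signal was the highest strict peak overlapping a promoter by at least 1 base, or 0. Peaks of both libraries that overlapped were merged into sites. Copies were sought with blastn 2.17.0. Tables were made with Python 3.11.15 and pandas 2.3.3, and overlap and motif steps were tested on simulated data. The members, gene lists and motifs were chosen with earlier results of these data known. Named were all members, neighbours with a strict peak, and, per role of the pathway, the 3 highest genes and the first in the alphabet without a strict peak. Tmsb4x, Slc22a14, Gm45542 and the single cell type markers were named after their values were seen. Alternatives were other lists, windows, widths and motif ranges, and leaving out each replicate.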

Additional observations from a re-analysis of the deposited data

How the results depend on the processing

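Of 121 values recomputed under an alternative, 101 stayed in range. The range was 1.5 times the count, 1 SD of the promoter signal or the 95% exact binomial interval of a share. For a promoter signal, leaving out a replicate could not give a move, because with n = 2 each value lies within 1 SD of the mean by arithmetic. These alternatives are among the 101 and say nothing about stability. With the strongest 50% of strict peaks, 1 member, Myd88, had a promoter peak in both replicates instead of 5, beside 9424 instead of 11204 of all genes. The Myd88 call then rested on the peak shared with Acaa1a. Leaving out a replicate gave 5 to 6 members, 11266 to 12431 of all genes and 35 to 39 pathway genes. Among genes with a CpG ratio under 0.4, 696 were called in both replicates. Window peaks fell from 41 to 20 (replicate 1) and from 20 to 8 (replicate 2) with the strongest 50%, and to 24 in replicate 1 with equal numbers of peaks. Distal peaks, 19 and 8, fell to 6 and 2 with the strongest 50%, and to 8 in replicate 1 with equal numbers. Windows widened by 10000 bases held 10 peaks in replicate 2, 11 and 3 distal peaks, and 101 and 49 footprints. Motif matches in own promoter peaks were 51 in replicate 1 and 22 in replicate 2. The share of distal sites called in both was 27.3% to 63.2%, with an exact interval of 20.3% to 66.5% for the 42.1%. That interval takes the sites as independent, although most shared ones lay together at Tlr5 and Tlr8. Staying inside it is therefore no measure of stability. For single members 6 of 60 promoter signals moved by more than 1 SD. They moved through the larger list at Tlr1, Tlr5 and Tlr7 and through summed peaks at Tlr2, Tlr6 and Myd88. The 60 include those leaving out a replicate, which could not move. Reads per peak are unknown, so counting error is not given. No paired analysis was possible because there is 1 group.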
